A study of Mus musculus with 2 samples.

Results

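Nuclear receptors are transcription factors whose activity is set, in many cases, by a small lipophilic ligand such as a steroid, a thyroid hormone, a bile acid or a fatty acid. Most recognise the core motif AGGTCA as monomers, as homodimers or as heterodimers with a retinoid X receptor. In the liver they connect circulating metabolites and hormones to bile acid, lipid, glucose and drug metabolism, and Hnf4a, itself a nuclear receptor, stands above several of them in the hepatocyte network.

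Hnf4a sites were examined at the 46 listed mouse nuclear receptor genes other than Hnf4a, among 21887 protein-coding genes of the RefSeq table of GRCm38.p6, and all 46 were found there by symbol. The sites came from ChIL-seq. There, an antibody-bound probe brings a transposase to the protein's site, and a T7 promoter placed in the DNA nearby allows it to be transcribed in fixed cells. The cells were iHepCs, hepatocyte-like cells made from wild-type C57BL/6J mouse embryonic fibroblasts (MEFs) with a retrovirus that forces expression of Foxa2 and Hnf4a. There was 1 group of 2 samples, described as biological replicates, both carrying the introduced factors. Their peak names hold the same lot number, so both may share a lot of cells, which the sample labels do not state. The medium held 100 nM dexamethasone, a ligand of the glucocorticoid receptor Nr3c1, as well as serum, insulin, nicotinamide, 20 ng/ml HGF and 20 ng/ml EGF (hepatocyte and epidermal growth factors). No control library was analysed here, so whether a site was bound by introduced or by endogenous Hnf4a, or marks open chromatin, was not tested.

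The deposited lists held 21283 summits in replicate 1 and 24097 in replicate 2, each a single base in mm10 with the authors' −log10 q, called the score below (medians 7.32 and 6.67). Read depth is unknown. Summits of both lists were merged where the next lay within 100 bp, and the 9193 merged regions with a summit of each replicate are called shared regions. For orientation, 3 of 6 hepatocyte marker genes (Afp, Fgb and Serpina1a, not Alb, Apoa1 or Ttr) had a shared region within 10 kb of a gene end. Of 6 fibroblast marker genes (Col1a1, Col1a2, Thy1, Twist1, Prrx1 and Pdgfrb), 0 did. In each list 1 gene, Afp and Prrx1, held one inside. Of all protein-coding genes, 20.6% had one within 10 kb of an end and 13.7% inside, and lists of 6 genes are too small for a contrast. Binding sites do not measure expression, so the cell type was not checked in that way.

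Hnf4a regions were unevenly spread over the superfamily. Shared regions were found inside the gene or within 50 kb of an end for 27 of 46 receptors (58.7%, against 47.9% of all protein-coding genes), 56 distinct regions in all. The thyroid hormone, retinoid, PPAR, Rev-erb, ROR, LXR and FXR, and vitamin D and xenobiotic receptors make up subfamily NR1. They held 28 of the 36 shared regions counted in or within 10 kb of a gene, the Nr1d1 region being counted for Thra too. NR1 has 19 of the 46 genes and 2590888 of their 5264704 bp. Rarb accounted for 8 of the 28 regions and Pparg for 5. The subfamily NR2, which holds Hnf4g and the retinoid X receptors, had a single gene with a shared region within 10 kb. Of the 46 genes, 18 had a shared region inside the gene or within 10 kb of an end (39.1%), against 26% of all protein-coding genes. Another 7 (15.2%, against 11.1% of all genes) had summits of both replicates there but no shared region. Summits of 1 replicate only were present at 8 (17.4%, against 21.3%), and 13 had none (28.3%, against 41.5%).

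**Figure D1:**
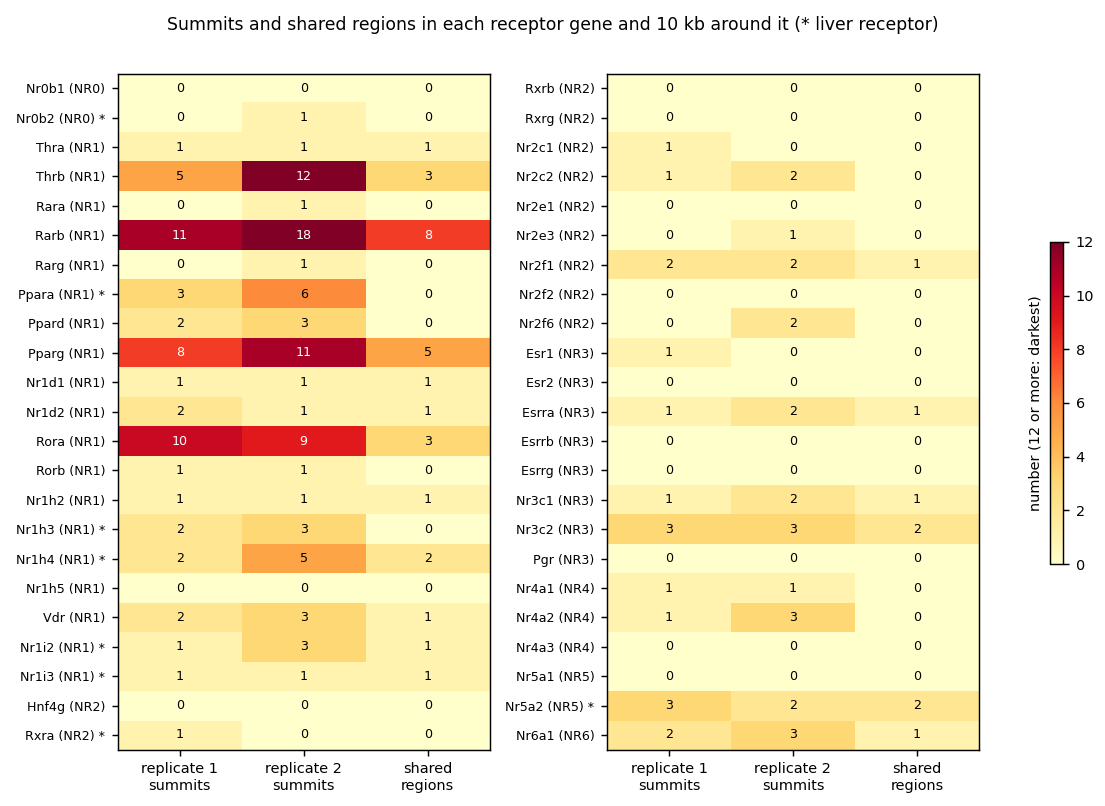
Number of summits of replicate 1, of replicate 2 and of shared regions (columns) in each of the 46 receptor genes and 10 kb on either side (rows, subfamily in brackets, asterisk for liver receptors). The numbers are printed in the cells and shaded from 0 to 12. Rarb, Thrb, Pparg and Rora carry the most summits, and Nr2f1 is the single NR2 gene with a shared region.

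Counted within 10 kb of a gene end, the receptors as a whole did not stand out. A shared region was present at 10 of 46 (21.7%, 95% exact binomial interval 10.9 to 36.4, for counting error only), against 20.6% of all protein-coding genes. Replicate 1 alone had a summit at 21 of 46 (45.7%, against 39.4% of all genes) and replicate 2 at 23 of 46 (50%, against 41.9%). Within 50 kb of an end, 25 of 46 had a shared region (54.3%, against 46.8% of all genes). Replicate 1 had a summit there at 39 receptors (84.8%, against 69.3%) and replicate 2 at 36 (78.3%, against 72.4%).

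Inside the genes the share was higher. A shared region lay within 12 of 46 receptor genes (26.1%), against 13.7% of all protein-coding genes. Replicate 1 placed a summit inside 20 (43.5%, against 26.3%) and replicate 2 inside 19 (41.3%, against 28.4%). Receptor genes are long, with a median of 46822 bp against 17169 bp over all protein-coding genes, and longer genes hold more regions. Among genes of 100 kb or more, 8 of 13 receptors (61.5%) and 44.3% of all genes held a shared region, and among shorter genes 4 of 33 receptors (12.1%) and 9.86% of all genes did. These length classes were chosen after the data were seen. Per 100 kb of gene, the receptors held 0.532 shared regions and all protein-coding genes 0.416. This density was 0.552 against 0.345 in the long class and 0.455 against 0.520 in the short class, so the receptors lay above all genes only in the long one. There, Rarb held 6 and Pparg 5 of the 23 shared regions inside the 13 receptor genes. The density without Rarb and Pparg was not computed. Single summits per 100 kb were 1.01 against 0.999 in replicate 1 and 1.48 against 1.13 in replicate 2.

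**Figure D2:**
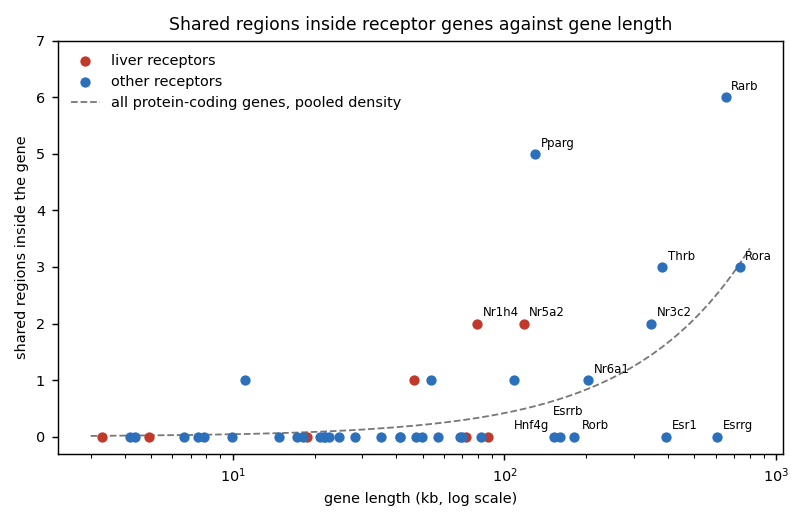
Shared regions inside each receptor gene (vertical axis) against gene length in kb (log scale), with liver receptors in red and other receptors in blue. The dashed line is the count that the pooled density of all protein-coding genes, 0.416 per 100 kb, gives at each length. Of the 46 receptors, 11 lie above the line, Pparg and Rarb with the most regions, 1 (Rora) lies just below it and 34, Esrrg and Esr1 among them, lie at 0.

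The 8 receptors best known for hepatocyte metabolism (Ppara, Nr1h3, Nr1h4, Nr1i2, Nr1i3, Rxra, Nr5a2 and Nr0b2, here liver receptors) had a shared region within 10 kb of an end in 3 cases (37.5%, 95% exact interval 8.52 to 75.5), against 7 of the other 38 receptors (18.4%, 7.74 to 34.3). The share over all protein-coding genes was 20.6%, near that of the other receptors. Within 50 kb the counts were 6 of 8 (75%) and 19 of 38 (50%), against 46.8% of all genes. Inside the gene they were 3 of 8 (37.5%) and 9 of 38 (23.7%), against 13.7%. Per 100 kb of gene the liver receptors held 1.16 shared regions, the others 0.476 and all protein-coding genes 0.416. Within 5 kb of an end the order turned round, with 1 of 8 liver receptors (12.5%), 6 of the other 38 (15.8%) and 14.9% of all protein-coding genes. The difference in the 10 kb counts rests on few genes and was not tested because the list was drawn up with earlier results known. The intervals overlap widely but give counting error only. They treat the genes as independent draws, although the genes were chosen and Thra and Nr1d1 were counted through the same region.

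**Figure D3:**
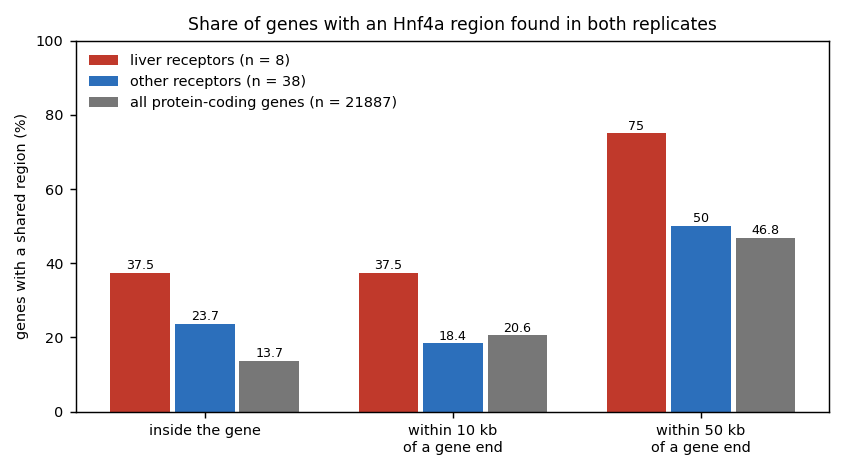
Percentage of genes with a shared region inside the gene, within 10 kb and within 50 kb of a gene end, for the 8 liver receptors (red), the 38 other receptors (blue) and all 21887 protein-coding genes (grey). Bars start at 0 and carry their values. The liver receptors have the highest bar in each window, on a base of 8 genes.

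The bile acid receptor gene Nr1h4, whose product FXR restrains bile acid synthesis, held a pair of shared regions inside the gene. At chr10:89527216-89527227, 6424 bp inside an end of the gene, the scores were 15.97 and 14.998 for replicates 1 and 2. It lay 20563 bp upstream of the start in the RefSeq promoter table, within the longer gene model. The region at chr10:89461826-89461924, near the opposite end, scored 6.12 and 9.53. Replicate 2 had 3 further summits in or within 10 kb of the gene, with scores of 3.19 to 5.58, that replicate 1 lacked.

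Nr1i2 encodes the pregnane X receptor, which switches on drug-metabolising enzymes. Its region at chr16:38287463-38287518 lay inside the gene, 7334 bp downstream of the start, and scored 15.2 in replicate 1 and 13.2 in replicate 2. A weaker region 40096 bp outside the gene, within Maats1, scored 5.71 and 10.9. For Nr1i3, which encodes the related constitutive androstane receptor, no summit lay inside the short gene. The region counted for it, at chr1:171222769-171222797 with scores of 13.8 and 14.4, lay 3938 bp outside Nr1i3 and within Apoa2, a high-density lipoprotein gene, 1219 bp downstream of the Apoa2 start. A region 41516 bp from Nr1i3 lay within Adamts4, a protease gene.

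Nr5a2 encodes LRH-1, an activator of bile acid synthesis genes. Its pair of shared regions lay inside the gene. One lay 13996 bp downstream of a start (8.89 in replicate 1 and 5.67 in replicate 2). The other lay 57473 bp downstream (8.21 and 14.2). These regions are more than 10 kb from both ends, so Nr5a2 counts under the gene interior only.

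The remaining 4 liver receptors had no shared region in the gene or within 10 kb, yet each had summits of at least 1 replicate there. Ppara, the main regulator of hepatic fatty acid oxidation, had 3 summits in replicate 1 and 6 in replicate 2. The nearest pair stood 102 bp apart, 4881 bp from an end in replicate 1 (7.79) and 4779 bp in replicate 2 (7.45), just beyond the limit for sharing, and a pair inside the gene stood 125 bp apart (6.72 and 7.29). The shared region nearest to Ppara, 25412 bp away, lay 41 bp upstream of the Ttc38 start.

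Nr1h3, the liver X receptor that senses oxysterols, had 2 summits in replicate 1 and 3 in replicate 2. The nearest pair stood 415 bp apart, and the best-scored summit (15.1, in replicate 2, 514 bp outside an end) had its nearest replicate 1 summit 9709 bp away. At Rxra, the heterodimer partner of most metabolic receptors, a replicate 1 summit 4779 bp outside an end scored 20.1, and the nearest replicate 2 summit was 98518 bp away. It was the only summit of either replicate in Rxra or within 50 kb. Nr0b2, which encodes SHP, a corepressor-like receptor induced by FXR, had a replicate 2 summit 7276 bp away (5.15) and a shared region 13776 bp away (7.04 in replicate 1 and 11.5 in replicate 2).

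Most genes with several shared regions were other members of NR1. Of 19 NR1 genes, 12 (63.2%) had a shared region inside or within 10 kb, against 26% of all protein-coding genes. The counts were 1 of 11 in NR2 (9.09%), 3 of 8 in NR3 (37.5%) and 1 of 2 in NR5. The single NR6 gene Nr6a1 had one, and 0 of 3 in NR4 and 0 of 2 in NR0 did. Gene length differed too, with medians of 47143 bp in NR1, 21628 bp in NR2 and 134694 bp in NR3. Per 100 kb of gene, the density was 0.811 in NR1, 0.228 in NR3 and 0 in NR2, against 0.416 for all protein-coding genes. NR5 reached 1.43 through the 2 regions of Nr5a2. The NR2 genes together span only 490062 bp, and no difference between subfamilies was tested.

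Pparg, the regulator of fat cell formation, held 5 shared regions in 130 kb, or 3.86 per 100 kb. Of the 70 protein-coding genes with 5 or more, 8 including Pparg were as short as Pparg or shorter. The best of its regions by the worse of both ranks, at chr6:115465627-115465636, scored 16.1 in replicate 1 and 20.2 in replicate 2. A close pair lay about 20 kb downstream of a start, 19782 bp from it with scores of 23.7 and 12.7, and 20707 bp from it with 10.0 and 10.4. The others scored 6.29 in replicate 1 and 6.49 in replicate 2, and 13.5 and 4.33. Within 10 kb outside the gene, summits of the replicates stood 248 bp apart on one side and 331 bp apart on the other and did not count as shared.

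Rarb, which encodes the retinoic acid receptor beta and is itself induced by retinoic acid, had 6 shared regions inside its 651 kb and 2 within 10 kb of an end. Replicate 1 had 11 summits and replicate 2 had 18 in this span. The strongest, at chr14:16728794-16728820, scored 13.96 in replicate 1 and 28.5 in replicate 2 and lay 298 kb from the nearer end. The 2 regions outside the gene, 1619 and 6893 bp from an end, scored 6.98 in replicate 1 and 7.96 in replicate 2, and 13.4 and 8.92. A pair of summits 111 bp apart inside the gene, scoring 13.4 and 21.3, narrowly missed the limit for sharing.

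Thrb, the main thyroid hormone receptor of hepatocytes, lies in the same stretch of chromosome 14 and held 3 shared regions in 381 kb. All of them lay over 100 kb from both ends. The best-scored had 14.4 in replicate 1 and 15.7 in replicate 2, and replicate 2 had 12 summits inside the gene against 5 in replicate 1. Rora, an activator in the circadian clock and the longest receptor gene at 735 kb, held 3 shared regions, 0.408 per 100 kb, close to the 0.416 of all genes. Their scores were 11.7 in replicate 1 and 8.96 in replicate 2, 10.4 and 16.6, and 11.2 and 6.07, and all lay in the 3′ part of the gene, 501 to 704 kb from its start.

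Vdr, the vitamin D receptor gene, held a shared region inside the gene (11.4 in both replicates). The 3 others within 50 kb lay in the neighbouring Hdac7, a histone deacetylase gene. Rorb, a brain and retina relative of Rora, had no shared region within 10 kb. A replicate 1 summit stood 73 bp downstream of its start (8.54) and a replicate 2 summit 840 bp upstream (2.95), 913 bp apart. The region 40082 bp from it lay within Trpm6, a magnesium channel gene. Ppard had a pair of summits 146 bp apart upstream of its start, 8596 bp away in replicate 1 (10.9) and 8450 bp away in replicate 2 (17.5), and shared regions only beyond 10 kb.

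**Figure D4:**
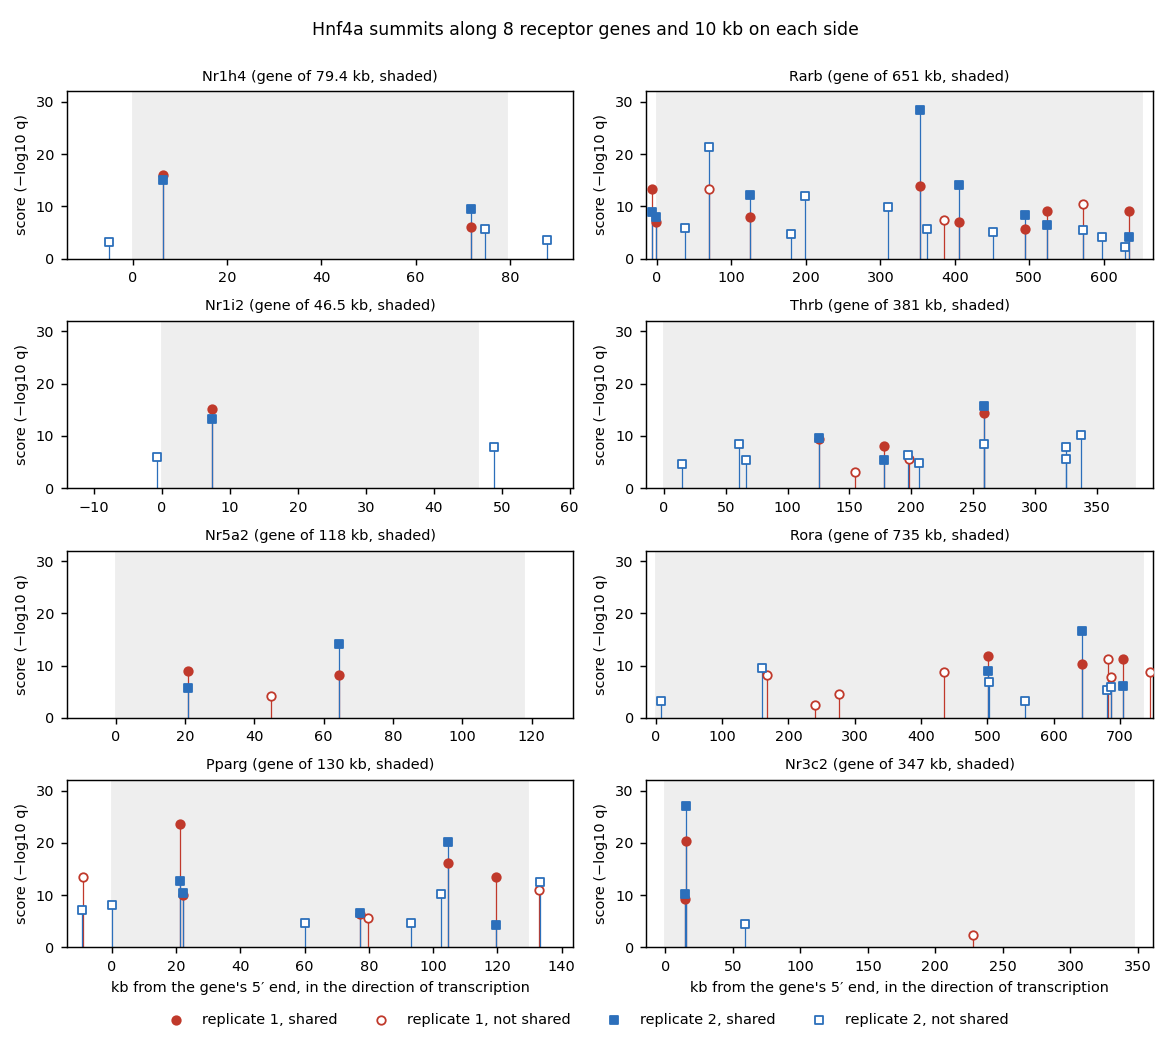
Score (−log10 q) of every summit along 8 receptor genes and 10 kb on each side, plotted in kb from the 5′ end of the gene model in the direction of transcription. Red circles are replicate 1 and blue squares replicate 2, filled where the other replicate has a summit within 100 bp, and the gene is shaded. Most filled symbols lie away from the 5′ end, such as the Rora group beyond 501 kb.

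At 3 receptor genes the shared region lay at the gene's own start. These were Nr1d1 and Nr1d2, which encode the haem-binding Rev-erb repressors of the circadian clock, and Esrra, which encodes a regulator of mitochondrial genes. They are 3 of the 42 receptors with a window in the RefSeq promoter table (7.14%), against 7.62% of 17492 protein-coding genes with one, counting regions in or within 200 bp of a window. The windows are printed because they are the receptor promoters in which both replicates placed their summits. Each runs 5′ to 3′ on the gene's strand from 250 bases before the start to 50 after it, in GRCm38.p6, and capitals mark the stretch from the summit of one replicate to that of the other.
Nr1d1, chr11:98775328-98775627, minus strand: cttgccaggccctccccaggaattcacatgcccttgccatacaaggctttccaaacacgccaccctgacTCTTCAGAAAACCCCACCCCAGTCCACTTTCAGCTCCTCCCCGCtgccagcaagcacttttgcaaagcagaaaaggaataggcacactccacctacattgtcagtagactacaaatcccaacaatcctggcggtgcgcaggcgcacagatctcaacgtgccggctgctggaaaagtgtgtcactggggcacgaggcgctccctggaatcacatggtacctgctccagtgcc
Nr1d2, chr14:18239057-18239356, minus strand: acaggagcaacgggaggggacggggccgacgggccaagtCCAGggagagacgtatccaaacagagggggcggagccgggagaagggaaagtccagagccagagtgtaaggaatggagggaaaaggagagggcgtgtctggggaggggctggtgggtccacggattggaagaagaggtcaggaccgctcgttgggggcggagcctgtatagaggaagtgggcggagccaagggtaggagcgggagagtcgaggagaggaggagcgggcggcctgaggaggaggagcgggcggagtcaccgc
Esrra, chr19:6921759-6922058, minus strand: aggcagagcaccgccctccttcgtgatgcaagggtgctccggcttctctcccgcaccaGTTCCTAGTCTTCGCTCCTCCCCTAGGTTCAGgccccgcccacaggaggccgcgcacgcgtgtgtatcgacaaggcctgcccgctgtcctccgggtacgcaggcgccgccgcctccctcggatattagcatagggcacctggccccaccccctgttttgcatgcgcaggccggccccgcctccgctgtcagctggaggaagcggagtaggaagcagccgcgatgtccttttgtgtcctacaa

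The Nr1d2 promoter carried the best-ranked region of all those in or within 10 kb of a receptor gene, with 27.3 in replicate 1 and 24.6 in replicate 2. Its summits stood 211 and 208 bp upstream of the start, 3 bp apart. The Esrra summits stood 192 and 161 bp upstream (12.4 in replicate 1 and 8.64 in replicate 2), and the Nr1d1 summits 181 and 138 bp upstream (7.50 and 4.14). The Nr1d1 region is also counted for Thra, the thyroid hormone receptor gene whose end overlaps that of Nr1d1, from which it lay 6530 bp. It was the only region counted for 2 receptors, and a promoter window of the gene Gm31862 also lies in or within 200 bp of it.

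Exact matches to AGGTCA, to the Hnf4 sites CAAAGTCCA and CAAAGTTCA, and to the extended oestrogen-related receptor site TCAAGGTCA, which contains AGGTCA, were searched on both strands. Of these, the Nr1d2 window held 1 AGGTCA, 77 bases before the start and downstream of the summits, and the Nr1d1 and Esrra windows held no match. Over all 62 windows of the 42 receptors, 12 held AGGTCA (19.4%), against 14.7% of 21263 windows of protein-coding genes. An Hnf4 site was present in 1 of the 62 (1.61%, against 0.804% of all windows), in Nr6a1, 78 bases before the start, and the extended site in 0 of the 62, against 0.334%. The GC content was 56.3% in the Nr1d1 window, 65.7% in that of Nr1d2 and 66% in that of Esrra, against a median of 56.3% over all windows. A match is a description of the letters, and sequences under the other regions were not analysed here.

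Among the remaining NR1 genes, Nr1h2, the widely expressed liver X receptor beta, had a region 700 bp outside an end (6.43 in replicate 1 and 8.93 in replicate 2). It lay 101 bp upstream of the start of Pold1, which encodes the catalytic subunit of DNA polymerase delta. Rara, Rarg and Nr1h5 had no shared region in the gene or within 10 kb. Rarg had a replicate 2 summit 27 bp upstream of a start (7.29) with the nearest replicate 1 summit 47400 bp away. Rara had a weak replicate 2 summit inside the gene (3.63), and the shared region nearest to Rara, 19977 bp away, lay 328 bp upstream of a start of Cdc6, a DNA replication gene.

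In subfamily NR2, Nr2f1, which encodes COUP-TFI, a receptor that can bind the same direct repeats as Hnf4a, was the single gene with a shared region within 10 kb. The region stood 1523 bp upstream of the gene and scored 21.1 in replicate 1 and 14.3 in replicate 2, above the medians of all shared regions (9.93 and 9.61). A second pair of summits further upstream (8.33 and 10.7) stood 239 bp apart. The related Nr2f2 had a shared region 47239 bp away (7.42 and 5.47), and Nr2f6 had one 14788 bp away (21.4 and 22.8) that lay 100 bp upstream of the start of Babam1, a DNA repair gene. Replicate 2 also placed a summit 1011 bp upstream of Nr2f6 (9.99), which replicate 1 lacked.

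Hnf4g, the closest relative of Hnf4a, had no summit of either replicate in its 152 kb or within 50 kb of its ends. The other genes without any were Nr2e1, a regulator of neural stem cells, Esrrb, Esrrg and the X-linked Nr0b1, so 5 of 46 receptors (10.9%) had none, against 20.6% of all protein-coding genes. Among genes of 100 kb or more, 3 of 13 receptors (23.1%) and 7.62% of all genes had none in the gene or within 50 kb. Among shorter genes, 2 of 33 receptors (6.06%) and 22.2% of all genes had none. Esrrg is 606 kb long. Counting the gene interior only, 11 of the 149 protein-coding genes at least as long (7.38%), Esrrg among them, had no summit of either replicate. A count of 0 in these lists means that no summit passed the authors' threshold.

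The heterodimer partners Rxrb and Rxrg had no summit in the gene or within 10 kb, and the shared region nearest to Rxrb stood 47848 bp away (19.4 in replicate 1 and 10.4 in replicate 2). Of the testis orphan receptors, Nr2c1 had 1 replicate 1 summit (5.90), and Nr2c2 had 1 replicate 1 summit (2.44) and 2 replicate 2 summits (5.66 and 6.92), none of them shared. Nr2e3, a photoreceptor regulator, had a shared region 14463 bp away within Thsd4.

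The steroid receptor subfamily NR3 showed its regions at the corticoid receptors and Esrra. Nr3c2, the mineralocorticoid receptor gene, held a close pair of shared regions 10.5 and 11.0 kb downstream of a start. The stronger, at chr8:76913362-76913366, scored 20.3 in replicate 1 and 27.0 in replicate 2, the weaker 9.21 and 10.3. Nr3c1, whose product the dexamethasone in the medium activates, held 1 shared region inside the gene, 35685 bp from an end, with scores of 5.96 in replicate 1 and 8.16 in replicate 2, both below the medians of all shared regions. Another stood 13109 bp outside (9.78 and 7.51). The sex steroid receptors Esr1, Esr2 and Pgr had no shared region in the gene or within 50 kb, although Esr1 spans 394 kb. A single weak replicate 1 summit lay inside Esr1 (3.43). Outside Pgr, summits of the replicates stood 220 bp apart, 29592 bp away in replicate 1 (6.51) and 29372 bp away in replicate 2 (4.78).

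The immediate early receptors Nr4a1, Nr4a2 and Nr4a3 had no shared region within 50 kb. Replicate 1 and replicate 2 placed summits inside Nr4a2 at 11.98 and 9.65 that stood 1490 bp apart, and replicate 2 placed one 352 bp upstream of the gene (11.9). Nr5a1, the steroidogenic regulator, had none within 10 kb, while its neighbour Nr6a1, a germ cell receptor, held a shared region inside the gene with 16.1 in replicate 1 and 12.5 in replicate 2.

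Over the 35 distinct shared regions in or within 10 kb of a receptor gene, replicate 1 had a median score of 10.4 (9.93 over all 9193 shared regions) and replicate 2 one of 10.3 (9.61 over all). The scores ran from 5.67 to 27.3 in replicate 1 and from 4.11 to 28.5 in replicate 2, so the receptor regions lay in the ordinary range of the lists. Replicate 2 scored higher at 18 of the 35, and 47.3% of all shared regions did so. On the log2 scale, replicate 2 over replicate 1 ran from −1.64 at a Pparg region to 1.03 at a Rarb region, so the order of receptors by score differed between the replicates.

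**Figure D5:**
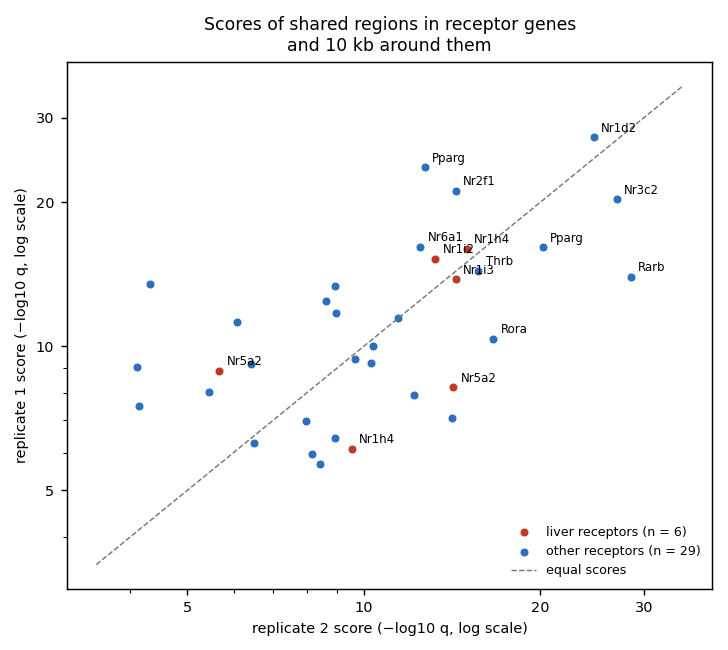
Replicate 1 against replicate 2 score (−log10 q, log scales) of the 35 shared regions in receptor genes and 10 kb around them, 6 at liver receptors (red) and 29 at other receptors (blue), with a dashed line of equal scores. The regions of Nr1d2 and one of Nr3c2 score above 20 in both replicates, and the 3 regions of Nr1h4, Nr1i2 and Nr1i3 with scores of 13.2 or more in both lie together near the line.

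Of the 28 regions inside receptor genes, 24 lay more than 10 kb from both ends. Of the 28 distinct regions outside, 12 lay within another protein-coding gene. Over all 56, 3 stood within 1 kb of the receptor's own start. For 7, the nearest protein-coding start was that of another gene and lay within 1 kb (Cdc6, Ttc38, Fance, Pold1, Hdac7 with 2, and Babam1). The same counts were not made over all 9193 shared regions. Which gene such a region acts on was not tested.

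Coregulator and target genes were counted in the same way. Of 20 coregulator genes, 5 had a shared region within 10 kb of an end (25%, against 20.6% of all protein-coding genes). The p160 coactivator gene Ncoa1 led them (26.6 in replicate 1 and 11.8 in replicate 2). Then came the corepressor-associated deacetylase gene Hdac3 (7.19 and 7.61), the corepressor gene Lcor (6.15 and 7.38), the acetyltransferase gene Kat2b (7.56 and 5.67) and a second p160 gene, Ncoa3 (10.6 and 5.20). Ppargc1a, which encodes the coactivator PGC-1alpha, held 4 shared regions inside the gene and none within 10 kb of an end. Ppargc1a was singled out after its values were seen, and its count was not set against its length. Per 100 kb of gene, the 20 coregulator genes held 0.419 shared regions inside, against 0.416 for all protein-coding genes.

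Of 30 classical target genes of the liver and hormone receptors, 9 had a shared region within 10 kb of an end (30%). Dio1, a thyroid hormone deiodinase gene, led them with 18.6 in replicate 1 and 29.3 in replicate 2. Klf9, a transcription factor gene induced by thyroid and glucocorticoid hormone, scored 15.98 and 39.5. Cyp8b1, of cholic acid synthesis, scored 14.8 and 18.6, and Hr, a corepressor gene, 13.3 and 12.3. Pdk4, which restrains glucose oxidation, scored 14.2 and 10.0. Against the 20.6% of all protein-coding genes, neither list was tested. Cyp2b10, Fkbp5 and Tat, which fall outside the naming rule and were picked after their values were seen, also had a shared region there.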

How the data were processed

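ChIL-seq summit lists of 2 replicates of 1 group were analysed. Per the submitters' processing notes the build was mm10 and the tools were MACS2 2.2.9.1, HISAT2 2.0.5 and fastp 0.23.4. A deposited list gives 1-bp summits of a single library with the authors' −log10 q-value, and the peak names state a q threshold of 0.01. Use of a control and of filters was not given in the sources used here. Both replicates may share a lot of cells, so their spread may be partly technical.

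Gene spans came from the RefSeq table of GRCm38.p6 (mm10), and starts, strands and sequences from the RefSeq promoter table, which held windows for 42 of the 46 receptors. Shared regions and windows are defined in the text, and region midpoints were placed. A region counted for every gene in reach. Members and lists were chosen with earlier results of these data known. No test was run: there is 1 group, and lists are described beside all protein-coding genes. All 46 receptors are named. Coregulators and targets are named in the order of the worse rank of both replicates, up to 6 each, and values of some genes are not reported here. Alternatives covered sharing distance, score, list length, replicates, windows and nearest-gene assignment. Gene-length classes and a background without olfactory receptor genes were added after seeing the data. Counting was tested on simulated data. Python 3.11.15, numpy 2.4.6, pandas 2.3.3, scipy 1.17.1 and matplotlib 3.10.9 were used.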

Additional observations from a re-analysis of the deposited data

How the results depend on the processing

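Read alone, replicate 1 and replicate 2 gave 21 and 23 receptors with a summit within 10 kb of an end, since sharing was no longer asked for. They gave 20 and 19 with one inside and 39 and 36 within 50 kb. Within 10 kb they gave 6 and 6 of 8 liver receptors (75% each). Of the 38 other receptors they gave 15 and 17 (39.5% and 44.7%). The shares of all genes within 10 kb were 39.4% in replicate 1 and 41.9% in replicate 2. Against 10 receptors with a shared region within 10 kb, a window of 20 kb gave 19 (41.3%, against 29.7% of all genes). Of these, 15 were other receptors (39.5% of the 38). Counting the gene interior too gave 18 (39.1%, against 26.0% of all genes), 14 of them other receptors (36.8% of the 38). A window of 5 kb gave 1 liver receptor (12.5%, against 3 within 10 kb), below the 15.8% of other receptors and 14.9% of all genes, and sharing up to 500 bp gave 5 (62.5%, against 25.4% of all genes). With the 10000 best-scored summits of each replicate, there were 4 other receptors within 10 kb (10.5%, against 12.03% of all genes). Within 50 kb there were then 15 receptors (32.6%, against 31.1% of all genes), and with regions given to the nearest gene only there were 14 (30.4%, against 22.01%). The other alternatives moved these 5 counts by at most 1.5 times. In subfamily NR1 the 10 kb count of 8 of 19 (42.1%, against 20.6% of all genes) ran from 5 to 16. The 5 (26.3%) came with the 10000 best-scored summits (12.03% of all genes), nearest-gene assignment (14.4%) and a window of 5 kb (14.9%). The 16 (84.2%, against 41.9%) came from replicate 2 alone. In NR2 the count of 1 of 11 (9.09%, against 20.6%) ran from 1 to 3. The 3 (27.3%) came from replicate 1 alone (39.4% of all genes), replicate 2 alone (41.9%) and a window of 20 kb (29.7%). Leaving olfactory receptor genes (symbols starting Olfr) out of the background, an alternative chosen after seeing the data, gave 21.6% of 20777 genes within 10 kb, 14.4% inside and 49.0% within 50 kb. No paired analysis was possible because there is 1 group. Read depth is unknown and limits every count to the authors' threshold.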
